A study of Mus musculus with 6 samples.

Results

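A group of 24 genes was modestly lower in whole lungs of RbpjkCNULL embryos than in control lungs at E18.5, out of 21225 genes measured. They were selected on these same arrays, by the values themselves. A gene was taken when it had 1 symbol and a mean control level of at least 6 (log2), when its mean in RbpjkCNULL lungs minus its mean in control lungs lay between -1 and -0.4 (log2), and when its highest RbpjkCNULL value lay below its lowest control value. Of 20239 genes with 1 symbol, 11888 reached the control level, 49 of these had a difference in that range, and 30 of the 49 showed no overlap between the conditions. A further 6 (Cldn10, Cnn1, Fras1, Gsta3, Scgb3a1 and Trf) were set aside by name or name prefix, which left the 24. Every difference given for them below is therefore a description of how they were chosen and carries no test.

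The 6 arrays held whole lungs of C57BL/6 embryos, 3 of each condition and 1 lung per array, hybridised to the Mouse Gene 1.0 ST design of Affymetrix. RbpjkCNULL embryos carried Shhcre/+ and RbpjkFlox/Flox, so that Shh-cre, which acts in the epithelium of the airways, removed Rbpj there. The labels of the control lungs give 2 genotypes, wildtype in the title and Shh cre/+ in the source, so these lungs are called controls here. Nothing states whether lungs of different conditions shared a litter, and p values measure only the spread between these lungs. Because whole lung was measured, fewer cells of a type and less RNA per cell cannot be told apart.

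Notch receptors signal from cell to cell, and Rbpj is the DNA-binding protein through which all of them change transcription. In the developing airway, Notch signalling is known for directing epithelial precursors to the Clara cell (CC) fate rather than the ciliated fate. CCs are the main secretory cells of mouse airways, which release secretoglobins onto the airway surface and carry detoxifying enzymes. The 24 genes were taken up here as further candidates for such secretory cells, a label that the study did not give them. Their identity was set against that description first. Of the 24, 2 (Lypd2 and Cckar) were on a list of airway secretory cell markers, which held 37 of the 21225 genes measured. No member was found on any of 25 other lists, which covered other lung cell types, the Notch pathway, the secretory machinery, the cell cycle and further programs. By known function 6 of the 24 act in chromatin and DNA replication, and 6 at the cell surface or in the lysosome of epithelia and other cells. Roles were given to the 24 alone, so no share over all genes stands beside these counts. The rule itself kept some genes of the secretory list out. Cldn10, Gsta3 and Scgb3a1 were set aside by name prefix, and 11 others lay below its bound of -1. These lists therefore do not settle the label of secretory cell candidates, and the 24 are called the modestly lower genes.

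The microRNA gene Mir27b is the one member whose product is a short RNA, and its sequences are shown because its seed defines the family to which it belongs. The sequences are from RefSeq (GRCm38.p6). The hairpin lies at chr13:63300712-63300784 on the + strand and is 73 bases long, with both mature arms in capitals. In the mature RNAs, the capitals mark the seed, bases 2 to 8 from the 5′ end.
Mir27b hairpin: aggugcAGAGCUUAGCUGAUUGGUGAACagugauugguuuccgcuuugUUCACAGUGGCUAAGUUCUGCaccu
miR-27b-5p: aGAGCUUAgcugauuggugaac
miR-27b-3p: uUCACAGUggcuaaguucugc
miR-27a-3p: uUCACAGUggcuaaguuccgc
The arms lie at chr13:63300718-63300739 and chr13:63300760-63300780. MiR-27a-3p, made from the Mir27a gene of the related cluster, has the same seed as miR-27b-3p (UCACAGU), and these were the 2 mature RNAs of the table that hold it. Counted from the 5′ end, the only substitution from miR-27b-3p to miR-27a-3p is U19C. The array reads the Mir27b gene as 1 probe set after amplification of total RNA and does not measure either mature arm by itself.

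Promoters are shown for the members whose window held the core letters of the Rbpj recognition sequence, since Rbpj is the protein removed. RefSeq windows (GRCm38.p6), which run from 250 bases before to 50 bases after a start, were found for 17 of the 24 genes. The letters TGGGAA, on either strand, were in the windows of Emilin2 and Entpd3 only, that is in 11.8% of the 17. They were in 27.1% of all 15890 genes with a window, in 26.5% of those with a control level of at least 6, and in 29.4% of 126 genes that met the same rule upward. The longer GTGGGAA, which contains the shorter motif, was in 0 of the 17 and in 7.05% of all genes. The match is in capitals below, and it begins at -84 in Entpd3 and at -157 in Emilin2, counted from the start. Windows lie at chr9:120539568-120539867 (+ strand) for Entpd3 and chr17:71310962-71311261 (- strand) for Emilin2.
Entpd3: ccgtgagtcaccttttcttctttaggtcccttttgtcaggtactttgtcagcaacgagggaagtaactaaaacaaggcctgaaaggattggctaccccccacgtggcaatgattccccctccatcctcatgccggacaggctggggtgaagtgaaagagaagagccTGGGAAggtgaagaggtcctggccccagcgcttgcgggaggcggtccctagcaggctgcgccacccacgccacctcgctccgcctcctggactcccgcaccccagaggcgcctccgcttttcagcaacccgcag
Emilin2: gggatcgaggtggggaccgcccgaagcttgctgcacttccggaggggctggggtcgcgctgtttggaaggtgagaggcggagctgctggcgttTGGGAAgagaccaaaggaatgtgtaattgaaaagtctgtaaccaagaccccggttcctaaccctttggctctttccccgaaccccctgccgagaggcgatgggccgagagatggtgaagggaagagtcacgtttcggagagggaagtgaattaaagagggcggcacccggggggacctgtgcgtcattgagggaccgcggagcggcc
A match of letters is not a binding site, and no match says only that these letters are not in these windows. Over the 250 bases before the start alone, the share was again 11.8% for the members and 23.7% for all genes.

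The differences ran from -0.71 to -0.40 (log2, RbpjkCNULL minus control) with a median of -0.46, beside a median of -0.05 over all genes and of -0.02 over genes with a control level of at least 6. On the linear scale the genes were 1.32-fold to 1.64-fold lower. Standard errors were 0.07 to 0.18 (n = 3 lungs per condition), with a median of 0.13, against 0.09 over all genes. Control means ran from 6.02 to 8.88. The gap between the lowest control lung and the highest RbpjkCNULL lung had a median of 0.21 (log2). It was under 0.1 in 4 genes (Fzd10os, Pole, Tk1 and Kpna2) and largest in Lypd2, at 0.45. In the limma fit over all 21225 genes, 0.113% were called lower and 1.16% called higher at an adjusted p under 0.05. Of the 24 modestly lower genes 2 were called, Lypd2 and Olfml2a, and nothing is read from this count because the rule used the same contrast. Among the 11888 genes with 1 symbol and a control level of at least 6, 8.71% had every RbpjkCNULL lung below every control lung. The same rule upward took 156 genes.

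**Figure D1:**
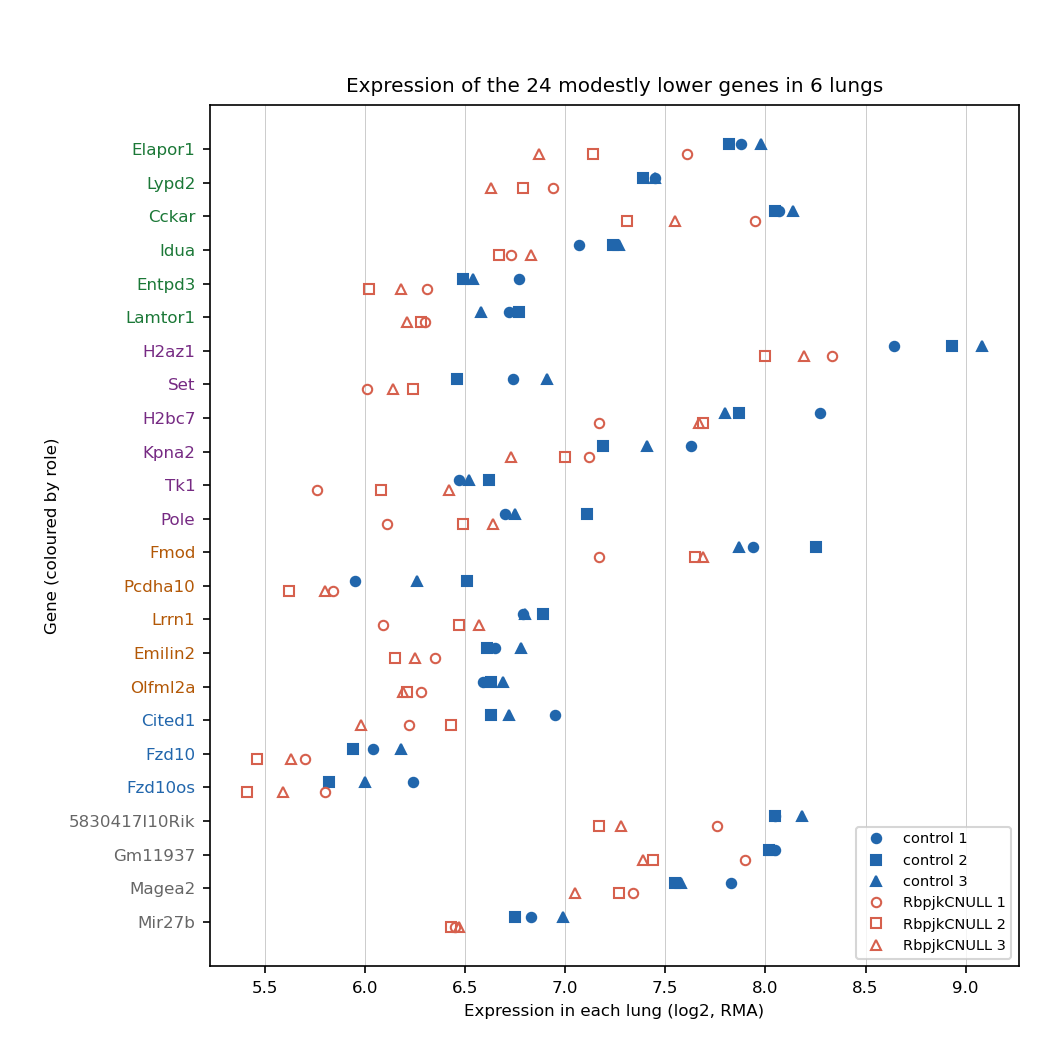
Expression (log2, RMA) of each of the 24 modestly lower genes in the 3 control lungs (filled blue) and the 3 RbpjkCNULL lungs (open red), with symbols numbering the lungs and gene names coloured by role. In each gene the open points lie left of the filled ones because the genes were chosen so, and the gap ranges from 0.02 to 0.45.

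The epithelial surface and lysosome genes are described first. Lypd2 encodes a protein of the Ly6/PLAUR family, whose members are small, cysteine-rich and often held at the surface by a lipid anchor. Its levels were 7.45, 7.39 and 7.45 in controls and 6.94, 6.79 and 6.63 in RbpjkCNULL lungs. The control lungs differed by 0.06 at most, and Lypd2 was 1.56-fold lower in RbpjkCNULL (-0.64, standard error 0.09). Slurp1 and Slurp2, which encode secreted proteins of the same family, are its neighbours in the annotation (GRCm38.p6). The 10 other Lypd genes measured had differences of -0.28 (Lypd6) to 0.07 (Lypd11), and 0 of them passed limma (smallest adjusted p = 0.558).

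Cckar encodes the receptor for cholecystokinin, a peptide hormone best known from gut and pancreas. Its levels were 8.07, 8.05 and 8.14 in the control lungs and 7.95, 7.31 and 7.55 in the RbpjkCNULL lungs. RbpjkCNULL lung 1 lay only 0.10 below the lowest control lung, and the other 2 lay well below it. The difference was -0.48 (standard error 0.15). The peptide gene Cck had a difference of -0.01 and the second receptor gene, Cckbr, one of -0.03, and neither passed limma.

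Cckar is the gene next to Rbpj along the chromosome, the gene that was deleted. Rbpj itself was at 6.45, 6.50 and 6.74 in controls and at 6.26, 6.17 and 6.18 in RbpjkCNULL, a difference of -0.36 (standard error 0.09). Of the 19 other measured neighbours on either side, 0 were called by limma (1 at an unadjusted p under 0.05) and 0 by the methods' t-test (4 unadjusted), and their differences ran from -0.23 to 0.21 with a median of 0.00. In 2 of the 19, every RbpjkCNULL lung lay below every control lung. Whether the floxed allele itself bears on Cckar was not tested, and in these arrays the allele and the loss of Rbpj cannot be told apart.

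**Figure D2:**
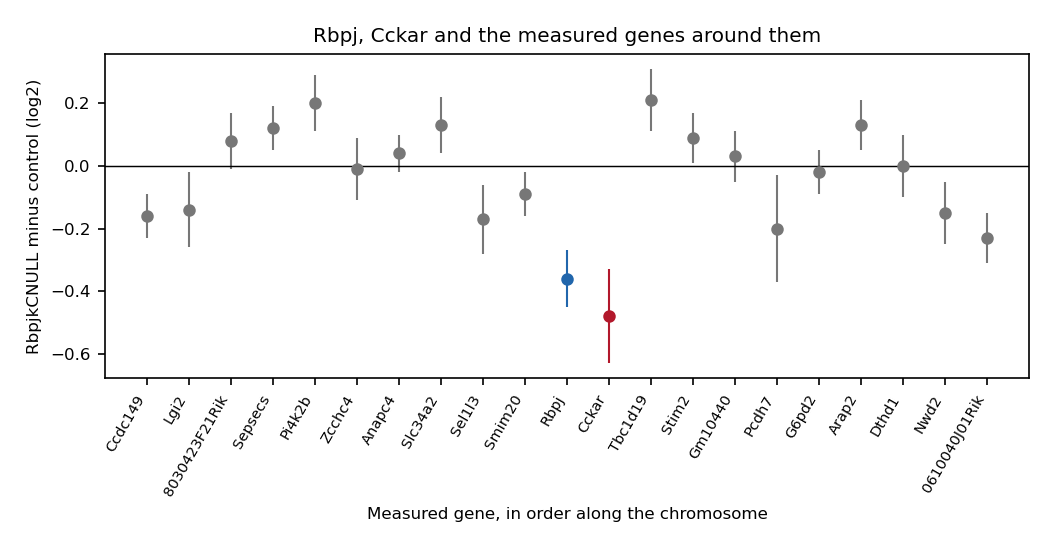
Difference between RbpjkCNULL and control lungs (log2, points, with standard errors as bars) for Rbpj (blue), Cckar (red) and 19 measured neighbours (grey) in order along the chromosome. Cckar (-0.48) and Rbpj (-0.36) lie below the others, which range from -0.23 to 0.21.

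Elapor1 encodes a membrane protein of late endosomes and lysosomes. It had control levels of 7.88, 7.82 and 7.98 and RbpjkCNULL levels of 7.61, 7.14 and 6.87. The RbpjkCNULL lungs spread over 0.74, more than in any other of the 24 genes, and the control lungs over 0.16. Elapor1 was 1.61-fold lower (-0.68, standard error 0.17), and its relative Elapor2 had a difference of 0.14, which did not pass limma.

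Entpd3 encodes an ectonucleotidase, which splits nucleotides such as ATP outside the cell. Levels were 6.77, 6.49 and 6.54 in controls and 6.31, 6.02 and 6.18 in RbpjkCNULL (-0.43, standard error 0.11). Its relative Entpd8 was just under the required control level, with 5.83, 5.93 and 5.91 against 5.58, 5.26 and 5.35. Entpd8 differed by -0.50 (standard error 0.09, limma adjusted p = 0.0693) and did not pass. The 6 remaining Entpd genes had differences between -0.22 and 0.03, and none passed.

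Idua and Lamtor1 encode lysosomal proteins. Idua, the enzyme that removes iduronic acid from heparan and dermatan sulphate, had 7.07, 7.24 and 7.27 in controls and 6.73, 6.67 and 6.83 in RbpjkCNULL (-0.45, standard error 0.08). Other lysosomal enzymes that degrade these chains, 6 in number, had differences of -0.17 to 0.17, and 0 passed. Lamtor1, which anchors the Ragulator complex to the lysosomal membrane, had 6.72, 6.77 and 6.58 against 6.30, 6.28 and 6.21 (-0.43, standard error 0.08). The 3 other measured subunits of that complex, Lamtor2, Lamtor4 and Lamtor5, had differences of -0.06 to -0.01.

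The chromatin and DNA replication genes were H2az1, Set, H2bc7, Kpna2, Tk1 and Pole. H2az1, which encodes a histone variant placed at promoters, had the lowest difference of the 24 genes and the highest control mean. Its levels were 8.64, 8.93 and 9.08 in controls and 8.33, 8.0 and 8.19 in RbpjkCNULL, 1.64-fold lower (-0.71, standard error 0.13). The gene for the second H2A.Z protein, H2az2, had a difference of -0.10, which did not pass. Set, a histone chaperone and inhibitor of protein phosphatase 2A, had 6.74, 6.46 and 6.91 in controls and 6.01, 6.24 and 6.14 in RbpjkCNULL (-0.57, standard error 0.12). H2az1 and Set have many processed copies elsewhere in the mouse genome, and probes may read these too.

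H2bc7, one of the replication-dependent H2B genes, had 8.27, 7.87 and 7.80 in controls and 7.17, 7.69 and 7.67 in RbpjkCNULL. RbpjkCNULL lung 1 was far below the other 2, of which lung 2 came within 0.11 of the lowest control lung. The standard error, 0.18, was the largest of the 24 genes (difference -0.47). Genes of this family are nearly identical in sequence, so their levels are uncertain as those of single genes. The 12 other H2B genes of the clusters had differences of -0.25 to 0.22, and 0 passed limma. Of other replication-dependent or linker histone genes, 8 H2A, 7 H4 and 9 H1 genes were all below 0, from -0.52 (H4c6) to -0.04 (H2ac11), with a median of -0.20 beside -0.05 over all genes, and 0 passed. Without RbpjkCNULL lung 1, a setting chosen after seeing the data, 20 of these 24 histone genes were below 0 and 4 above it, from -0.40 (H4c3) to 0.18 (H2ac21), with a median of -0.12.

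Kpna2, Tk1 and Pole serve nuclear import, thymidine salvage and DNA replication. Kpna2, an importin alpha, had 7.63, 7.19 and 7.41 in controls and 7.12, 7.0 and 6.73 in RbpjkCNULL (-0.46, standard error 0.14). Tk1, thymidine kinase, had 6.47, 6.62 and 6.52 against 5.76, 6.08 and 6.42 (-0.45, standard error 0.16). Pole, the catalytic subunit of DNA polymerase epsilon, had 6.70, 7.11 and 6.75 against 6.11, 6.49 and 6.64 (-0.44, standard error 0.16). In Tk1 and Pole, as in H2bc7, RbpjkCNULL lung 1 was lowest, and the highest RbpjkCNULL lung was within 0.11 of a control lung. Without RbpjkCNULL lung 1, the differences were -0.29 in Tk1, -0.29 in Pole and -0.30 in H2bc7. The 5 other importin alpha genes had differences of 0.00 to 0.13, the 3 other subunits of the polymerase -0.13 to -0.06 and the mitochondrial kinase Tk2 -0.03. None of these 9 passed limma.

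The same lung stood apart in proliferation genes that are not members. Over 20 measured cell cycle genes the mean level was 7.72, 8.05 and 7.75 in the control lungs and 7.17, 7.75 and 7.76 in the RbpjkCNULL lungs. Their median difference was -0.27, beside -0.05 over all genes, and 0 of the 20 were called by limma (3 at an unadjusted p under 0.05). With RbpjkCNULL lung 1 at 7.17 and the other 2 lungs within the control range, the conditions overlapped. The part of this lung's cell cycle level in the differences of Tk1, Pole and H2bc7 was not tested.

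The matrix and cell surface genes were Fmod, Emilin2, Olfml2a, Lrrn1 and Pcdha10. Fmod, the proteoglycan fibromodulin that binds collagen fibrils, had 7.94, 8.25 and 7.87 in controls and 7.17, 7.65 and 7.69 in RbpjkCNULL (-0.52, standard error 0.16). RbpjkCNULL lung 1 was again lowest, and without it the difference was -0.35. The 9 other small leucine-rich proteoglycans, decorin, lumican and biglycan among them, had differences of -0.35 (Lum) to 0.12 (Ogn), and 0 passed.

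Emilin2 is a glycoprotein of elastic fibres, with 6.65, 6.61 and 6.78 in controls and 6.35, 6.15 and 6.25 in RbpjkCNULL (-0.43, standard error 0.08). Olfml2a, a secreted protein with an olfactomedin domain, had 6.59, 6.63 and 6.69 against 6.28, 6.21 and 6.19 (-0.41, standard error 0.07). Its lungs lay within 0.10 of each other in each condition, and its standard error was the smallest of the 24 genes. The 2 other Emilin genes and the 3 other Olfml genes had differences of -0.15 to 0.00, and none passed.

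Lrrn1 encodes a leucine-rich repeat protein of the cell membrane known from neurons. Levels were 6.79, 6.89 and 6.80 in controls and 6.09, 6.47 and 6.57 in RbpjkCNULL (-0.45, standard error 0.13). Pcdha10, a clustered protocadherin, had 5.95, 6.51 and 6.26 against 5.84, 5.62 and 5.80 (-0.49, standard error 0.14). The protocadherin alpha genes share their last exons, so the array may not fully separate them, and their probes were not checked. The 11 others had differences of -0.72 (Pcdha5) to 0.74 (Pcdha11), a wider range than in any other family compared here, and 0 passed. Cartilage and smooth muscle, which also lie in the airway wall, had mean marker levels of 6.02 to 6.21 and 7.72 to 7.78 in control lungs, and of 5.89 to 6.06 and 7.48 to 7.72 in RbpjkCNULL lungs. Limma called 0 of their 16 and 17 measured genes (3 and 2 at an unadjusted p under 0.05), with medians of -0.15 and -0.11, and their part in the matrix genes was not tested.

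The signalling and transcription genes were Cited1, Fzd10 and the non-coding Fzd10os. Cited1, a transcriptional co-regulator that binds p300 and CBP, had 6.95, 6.63 and 6.72 in controls and 6.22, 6.43 and 5.98 in RbpjkCNULL (-0.56, standard error 0.13). Its relatives Cited2 and Cited4 had differences of 0.01 and -0.08. Fzd10 encodes a receptor for Wnt proteins and had 6.04, 5.94 and 6.18 against 5.70, 5.46 and 5.63 (-0.46, standard error 0.10). The 9 other frizzled receptor genes had differences of -0.18 (Fzd2) to 0.14 (Fzd3), and 0 passed.

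Fzd10os is a long non-coding RNA gene next to Fzd10 in the annotation (GRCm38.p6). It had 6.24, 5.82 and 6.00 in controls and 5.80, 5.41 and 5.59 in RbpjkCNULL (-0.42, standard error 0.14). Its highest RbpjkCNULL lung came within 0.02 of its lowest control lung, the smallest gap of the 24 genes. In both genes RbpjkCNULL lung 1 was the highest of its group and RbpjkCNULL lung 2 the lowest. The pair are not 2 independent genes of the list, since they lie side by side. Both also lie at the lower edge of the required control level, with control means of 6.06 and 6.02.

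The little-described and non-coding genes were 5830417I10Rik, Gm11937, Magea2 and Mir27b. The transcribed pseudogene 5830417I10Rik had 8.05, 8.05 and 8.18 in controls and 7.76, 7.17 and 7.28 in RbpjkCNULL, 1.62-fold lower (-0.69, standard error 0.15). Gm11937, a predicted gene among keratin-associated protein genes, had 8.05, 8.02 and 8.03 against 7.90, 7.44 and 7.39 (-0.46, standard error 0.13). The 3 control lungs of Gm11937 lay within 0.03 of each other and the RbpjkCNULL lungs within 0.50. Magea2, of a family of testis and tumour antigens, had 7.83, 7.55 and 7.58 against 7.34, 7.27 and 7.05 (-0.44, standard error 0.11). The 6 other Magea genes had differences of -0.25 to 0.08, and 0 passed.

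Mir27b had 6.83, 6.75 and 6.99 in controls and 6.45, 6.43 and 6.47 in RbpjkCNULL (-0.40, standard error 0.08). Its RbpjkCNULL lungs spread over 0.05, less than in any other of the 24 genes. Mir23b and Mir24-1, which lie in the same cluster, had differences of -0.35 and 0.03. Mir27a, the gene whose mature 3p arm shares the seed printed above, had a difference of -0.16. None of these passed limma. Over all families 128 relatives of the 24 genes were measured, of which limma called 0 (13 at an unadjusted p under 0.05) and the methods' t-test 0 (7 unadjusted).

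**Figure D3:**
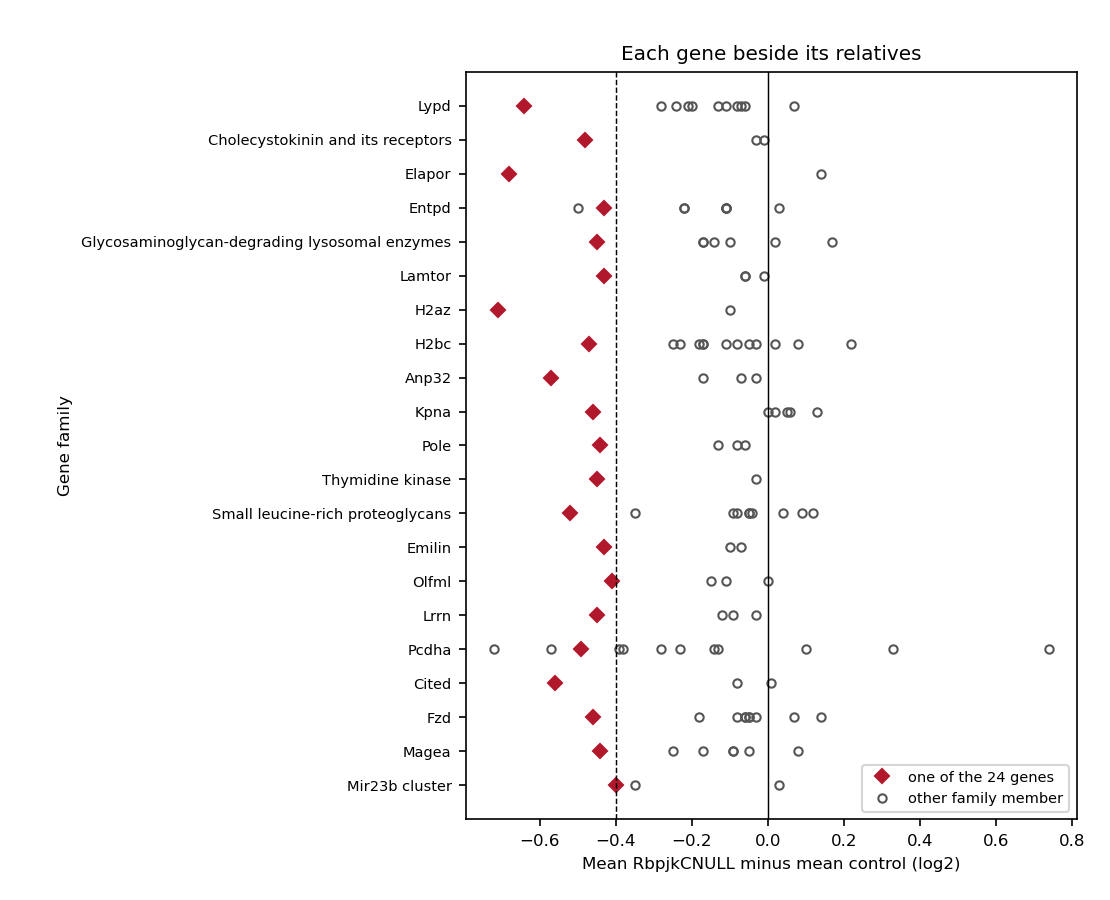
Difference between RbpjkCNULL and control lungs (log2) of the modestly lower genes (red diamonds) and of the other measured genes in the families or clusters that hold one of them (open circles), with dashed and solid lines at -0.4 and 0. The diamonds lie left of -0.4 by choice, and among the open circles only Entpd8 (-0.50), Pcdha5 (-0.72) and Pcdha7 (-0.57) reach beyond it.

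The genes did not vary alike within the conditions. RbpjkCNULL lung 1 was the highest of its group in 15 of the 24 genes, lung 2 in 3 and lung 3 in 6, whereas among genes with a control level of at least 6 these shares were 32%, 28.8% and 39.2%. In the epithelial surface and lysosome genes it was highest in 5 of 6, at a median of 0.15 above its group's mean. In the chromatin and DNA replication genes it was lowest in 4 of 6, at a median deviation of -0.21. Among genes with a control level of at least 6 it was lowest in 47.7%. The 11 genes that were over 2-fold lower had RbpjkCNULL lung 1 highest in 5, with a median deviation of -0.08. Without this lung the differences of 5830417I10Rik, Elapor1 and Cckar were -0.87, -0.88 and -0.65. The RbpjkCNULL lungs had the wider spread in 14 of the 24 genes and the control lungs in 10, with a median SD of 0.18 against 0.12 in controls (n = 3 each). Over genes with a control level of at least 6 the median SD was 0.08 in RbpjkCNULL lungs and 0.09 in controls.

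**Figure D4:**
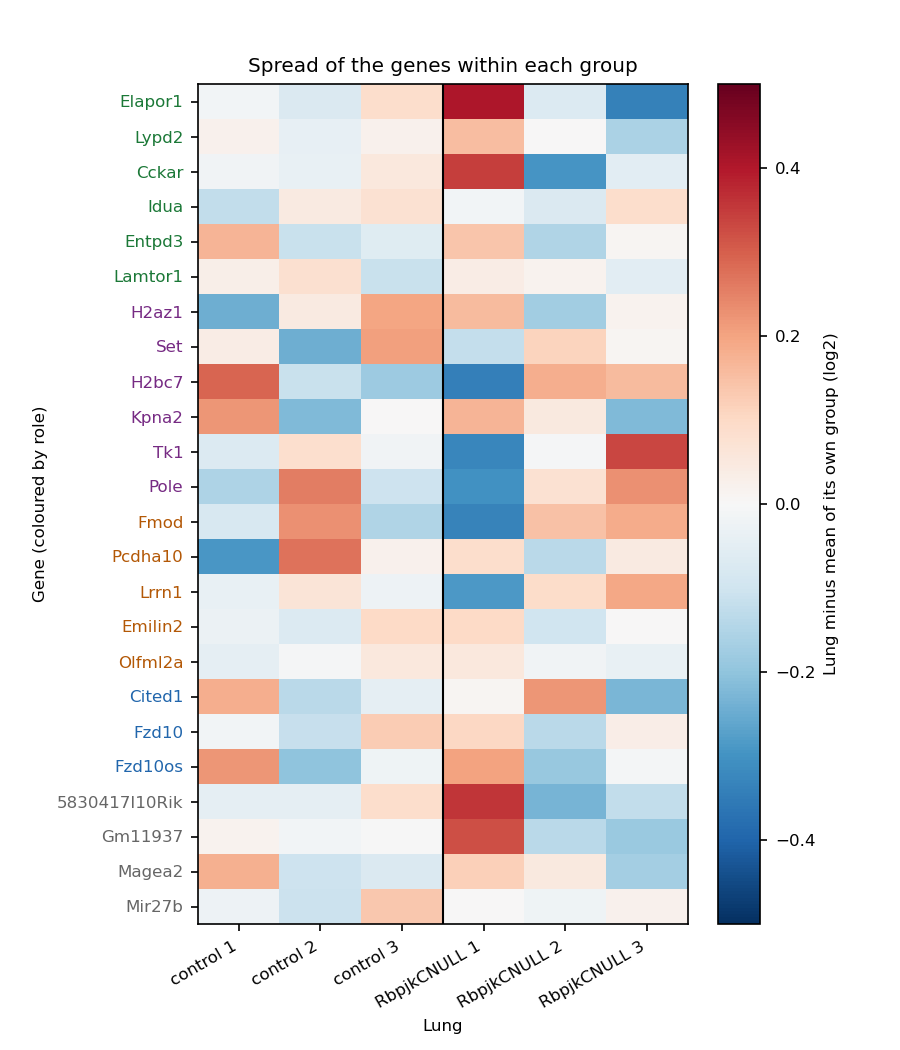
Each lung's level minus the mean of its own group (log2, colour scale) for the 24 modestly lower genes, controls left of the line and RbpjkCNULL lungs right of it, with names coloured by role. RbpjkCNULL lung 1 is red in Elapor1, Cckar, 5830417I10Rik and Gm11937 and blue in H2bc7, Tk1, Pole, Fmod and Lrrn1.

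Facts of the arrays that touch these values follow. Array medians lay between 6.43 and 6.50, and lower quartiles were 5.03 to 5.11 in control lungs 1 and 3 and RbpjkCNULL lung 1 but 4.87 to 4.89 in the other 3 lungs. Xist, expressed from the inactive X of females, was 10.5 and 10.7 in control lungs 1 and 2 and 4.13 to 4.91 in the other 4 lungs, so condition and sex partly coincide. The members on the X chromosome, Cited1 and Magea2, had 6.72 and 7.58 in control lung 3, the control with low Xist. Both values lay above all RbpjkCNULL lungs, as the rule required of every control lung. With the lungs of low Xist alone (1 control against 3), the differences of the 24 genes had a median of -0.49, and their sign was fixed by the rule. With the Xist level as a covariate the median was -0.48, and limma called 0 of the 24 (11 at an unadjusted p under 0.05). Since Xist was high in control lungs 1 and 2 alone, this covariate mostly sets the RbpjkCNULL lungs against control lung 3. Its differences lay near those of the lungs with low Xist (H2az1 -0.94 and -0.91, Set -0.83 and -0.78), so it is no separate check of sex.

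**Figure D5:**
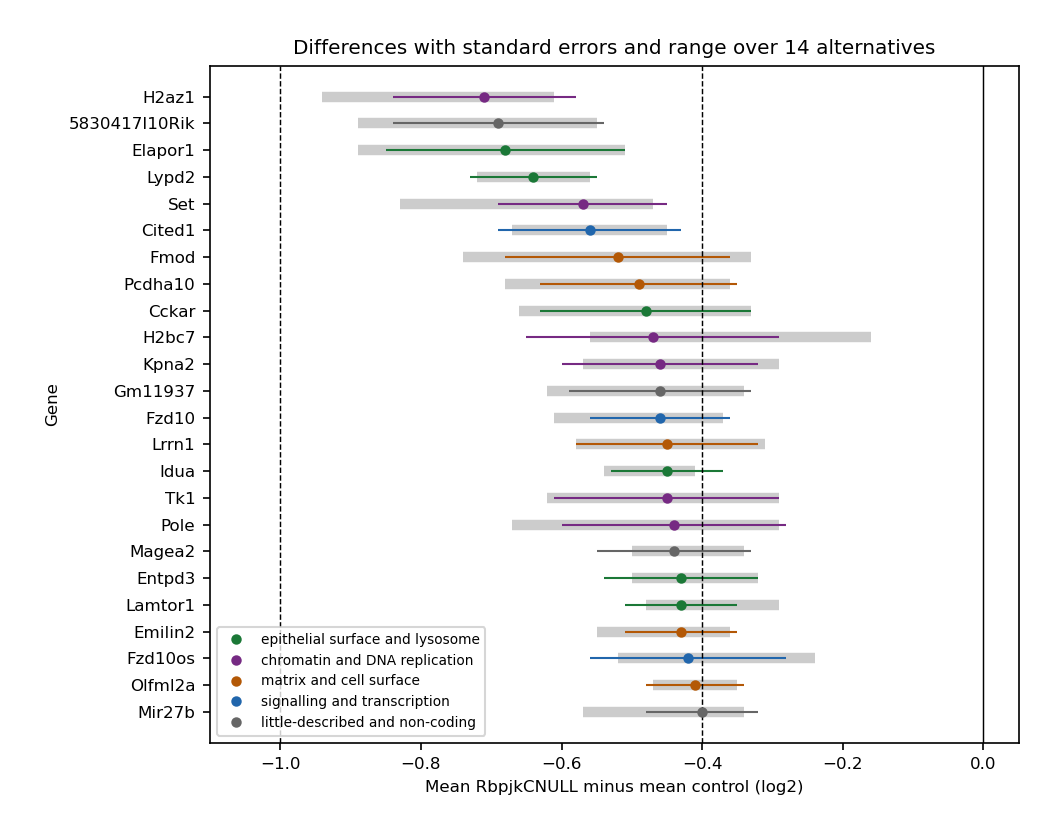
Mean RbpjkCNULL minus mean control level (log2, points) of each gene with its standard error (coloured bars) and the range of that difference over the alternatives (grey bands), with dashed lines at the bounds of -1 and -0.4 and a solid line at 0. All bands stay below 0, which the rule fixed for the settings that left out lungs, while the replicate block leaves each difference unchanged. The band of H2bc7 comes nearest to 0.

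Of the 37 measured genes of the airway secretory cell list, 15 were called lower and 0 higher by limma, with a median difference of -0.37, and 0 were called by the methods' t-test after adjustment (19 at an unadjusted p under 0.05). Among them are the 11 genes over 2-fold lower, which the study picked from this data set, and their direction is thus no separate evidence. Lypd2 and Cckar were 2 of the remaining 26, and of the other 24 listed genes 3 were called lower (Gsta3, Muc5b and Scgb3a1), with a median of -0.20. Those 24 had differences of -0.69 to 0.72, with 21 below 0 and 3 above it. The list was chosen with earlier results of these data known, so its remaining genes are no separate evidence either. The mean level of the whole list was 7.43 to 7.59 in control lungs and 6.66 to 6.84 in RbpjkCNULL lungs. Of 32 ciliated cell genes, 25 were called higher by limma, with a median of 0.94, and 4 were called by the methods' t-test (29 at an unadjusted p under 0.05). Of 51 genes of the secretory pathway machinery 0 were called by limma (3 at an unadjusted p under 0.05), with a median of -0.01. Of 33 pan-epithelial genes 0 were called (6 unadjusted), with a median of -0.02, and of 27 goblet and gland cell genes 0 (3 unadjusted), with a median of -0.03.

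By position in the annotation (GRCm38.p6), 5 of the 24 genes (Cckar, Fzd10, Fzd10os, Idua and Pole) lie on the chromosome that also carries Rbpj, number 5. That is 20.8% of the members, against 6.27% of genes with a control level of at least 6, and Fzd10 and Fzd10os are neighbours. No cause is read from this count, and the floxed chromosome and the loss of Rbpj cannot be told apart here. On the X chromosome lay 2 of the 24, which is 8.33% of the members against 2.79% of genes with a control level of at least 6.

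The bounds of the rule cut through a continuous range. Just inside -0.4 were Mir27b (-0.404) and Olfml2a (-0.406), and just outside were Zfp286 (-0.397) and Insl3 (-0.394). Towards -1, H2az1 (-0.711) and 5830417I10Rik (-0.693) were nearest inside, and Upk3a (-1.138) and Lrrc26 (-1.170) outside. The only gene with the required level and no overlap that lay between was Fras1 (-0.83), excluded by name. At the control level of 6, Fzd10os (6.022) and Fzd10 (6.056) were inside. Dppa5a (5.993, difference -0.494) and Atp6v1b1 (5.983, difference -0.564) were outside. Atp6v1b1 encodes the B1 subunit of the vacuolar proton pump and had 5.92, 5.88 and 6.15 in control lungs and 5.36, 5.33 and 5.56 in RbpjkCNULL lungs.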

How the data were processed

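Total RNA of 6 whole lungs (3 control, 3 RbpjkCNULL) was amplified, labelled and hybridised by the authors, 1 array per lung. The deposited values are log2 expression values per Entrez gene, which the authors made by RMA (affy, R 2.12.0: background correction, quantile normalization and median polish). No genome build applies to them. They were used without further scaling or filter. Symbols came from the platform's table, and 986 of 21225 genes had none. Positions and sequences were taken from RefSeq (GRCm38.p6).

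Limma 3.58.1 (R 4.3.3) was fitted to the conditions (lmFit, eBayes, prior of 3.48 degrees of freedom, Benjamini-Hochberg over all genes, called at an adjusted p under 0.05). The number of arrays limits the precision. The 24 members, the gene lists, families and roles were chosen with earlier results of these data known, and the fit was tested on simulated data. The rule for named genes took the 20 members with the lowest differences, members on a list or called, and the 2 genes nearest each bound on either side. Emilin2, Entpd8 and other relatives, Rbpj and its neighbours and the 4 genes named in the closing section were chosen after values were seen. Other settings tried were a trend, robust eBayes and array weights in limma, the methods' t-test, the replicate block, Xist and lower quartile covariates, leaving out lungs, other scalings, filters and bounds. Protein features were not analysed here.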

Additional observations from a re-analysis of the deposited data

How the results depend on the processing

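The difference of the members kept its direction in all 336 values under the alternatives. For the settings that left out lungs this was fixed in advance, since the rule allowed no overlap. The replicate block leaves each difference unchanged, so its direction and size were fixed too. Of the 336 values, 318 moved by less than the spread between lungs and 18 moved further. The 318 include every value from the replicate block and from leaving out 1 lung. With so few lungs per condition, leaving out 1 cannot move a difference by as much as that spread. These values were therefore counted among the 318 in advance, and no stability is read from them. The median of the members stayed between -0.42 and -0.51. The same rule gave 87 genes with an upper bound of -0.3 and 7 with -0.5, 44 with a control level of at least 5 and 11 with at least 7, and 40 where overlap was allowed. Leaving out 1 lung gave 38 to 78 genes, which shared 16 to 21 with the 24. Of the 24, 7 met the rule without any 1 lung. With no lower bound, an alternative chosen after seeing the data, there were 31.

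Over all genes 24 were called lower, 49 with array weights and 62 with the lower quartile as a covariate. There were 0 by the methods' t-test (1035 at an unadjusted p under 0.05), 0 with Xist as a covariate (1042 by limma) and 0 without the lungs of high Xist (1385 by limma). Leaving out 1 lung gave 11 to 36. Of the 24 members 2 were called, but 5 with limma's trend, 10 with array weights, 6 after quantile normalization, 5 after cyclic loess and 6 under either filter on low values. Over all genes, 27 were called lower with the trend, 29 after quantile normalization and 25 after cyclic loess. Under the filters, 29 were called lower among genes above the 25th percentile and 26 among genes above the median. There were 0 by the methods' t-test (17 unadjusted), 0 with Xist (11 by limma) and 0 without the lungs of high Xist (16 by limma), and 0 to 5 without 1 lung. The causes were not tested. Lypd2 was called under 12 of 20 alternatives and Olfml2a under 7 of 19.

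With the replicate block, 31 genes and 3 members were called. The median was again -0.46, because each number holds a lung of both conditions and the block then leaves every difference unchanged. Lungs of the same number deviated from their group means with correlations, across genes, of 0.491, 0.308 and -0.0872. Between lungs of unlike number these ran from -0.532 (control 2, RbpjkCNULL 1) to 0.412 (control 2, RbpjkCNULL 3). Whether the numbers pair the lungs cannot be told from so few values. Hydropathy thresholds were not run. With 3 lungs per condition, an exact test of a single gene cannot go below 0.1.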

Other observations

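Lowering the control level to 5 added 20 genes, named here after their values were seen. Saa3, which encodes a serum amyloid protein of innate defence, had a difference of -0.72 from a control mean of 5.73. Ptgfr, the receptor of prostaglandin F, differed by -0.48 from 5.60, and Ntsr1, the neurotensin receptor, by -0.53 from 5.21. Cdc25c, a phosphatase of the entry into mitosis, differed by -0.52 from 5.94. All 4 control means lay below the array medians of 6.43 to 6.50.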
